A study of Drosophila melanogaster with 7 samples.

Results

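The 4 arrays described here compared salivary glands whose cohesin had been cut with glands whose intact Rad21 came from a transgene. They were chosen by their titles, as the arrays numbered 2.1, 2.2, 2.3 and 2.4, and make up 4 of the 7 arrays of the series. Each is a 2-colour INDAC FL003 oligonucleotide array with 14569 probes, on which RNA from 1 cleaved and 1 intact sample competed. All glands came from Drosophila melanogaster larvae at the crawling stage of the third instar, and all carried w1118 and hs-TEV/+. hs-TEV is a heat-inducible gene for TEV protease, which cuts a short recognition sequence of its own, and its promoter is not limited to 1 cell type. In the cleaved samples Rad21ex15 Rad21(TEV) stood over Rad21ex3, so their Rad21 held TEV sites and, per the design text, a myc tag. In the intact samples Rad21ex3 tgRad21 stood over Rad21ex3. The other 3 arrays, numbered 1.1, 1.2 and 1.3, set the same cleaved genotype against glands with genomic Rad21 over Rad21ex3. Controls and cleaved glands alike met the protease: a heat shock of 45 min at 37 °C was followed by 10 to 12 h at room temperature, and RNA was then extracted. The cleaved and intact glands came from different stocks, so a difference between stocks and the cutting of Rad21 cannot be told apart. The protease cuts the Rad21 protein, which arrays of transcripts do not measure, and the gene for Rad21, vtd, was not analysed here.

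Cohesin is a ring of SMC proteins closed by Rad21. It holds sister chromatids together in dividing cells and also shapes chromatin loops and transcription in cells that no longer divide. The larval salivary gland is such a tissue. Its large polyploid cells make glue proteins for secretion before pupariation, and pulses of the steroid ecdysone, acting through the receptor of EcR and usp, end glue synthesis and switch on later gene sets, among them the Eig71E genes of the 71E puff.

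Each value is a log ratio deposited by the authors and read here as log2, which is an assumption about the base. Signs are given as deposited, because the labels do not say which sample is the numerator. Less transcript in the cleaved glands is the likely meaning of a negative value, since neurons of cohesin mutant flies are known to have low EcR and EcR was negative here. The sign of EcR is then part of this choice and no finding, and no table of the series fixes the direction. By the channel labels, cleaved glands were labelled with Cy5 for arrays 2.1 and 2.2 and with Cy3 for 2.3 and 2.4. Array medians lay between −0.22 and 0.25, and 16.3% to 27.3% of the probes had an absolute log2 ratio above 1, against 6.02% to 19.9% on the genomic-control arrays. The 4 arrays resembled each other little across probes, which are not independent replicates: Pearson's r ran from 0.011 (2.1 with 2.3) to 0.38 (2.2 with 2.3), and Spearman's rho was below 0 for 2.1 with 2.3 (−0.0761) and for 2.2 with 2.4 (−0.111). Each list below is therefore given array by array. The RNA is from whole glands, so fewer cells of a type and less RNA per cell cannot be told apart, and a ratio gives no level, so the tissue label was not checked against marker levels.

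Few genes passed the test, and those that did were far from 0. limma, with the mean of the 4 arrays and a dye term, called 39 of 14569 probes at an adjusted p under 0.05 (0.268%), 21 negative (0.144%) and 18 positive (0.124%). At an unadjusted p under 0.05 there were 1846. The 39 probes had absolute mean log2 ratios of 2.42 or more with a median of 3.67, while the median over all probes was 0.26 and the median standard error 0.28. All 39 had 1 sign on the 4 arrays. With 2 residual degrees of freedom, only a mean many times its standard error could pass. The large means and the shared sign therefore follow in part from the test. They named 35 genes, 18 negative and 17 positive, and 4 probes had no gene symbol. The count of calls depended on which arrays gave the spread: without array 2.3 or without 2.4 there were 0 calls, and without 2.1 or without 2.2 there were 419 and 752, each from fits with 1 residual degree of freedom. The means moved little over these fits, for example from −6.36 to −5.59 for CG10237 and from 4.38 to 4.45 for wbl.

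The genomic-control arrays, which played no part in the choice of these probes, carried the same signs. Of the 39 probes, 38 had the sign of the transgenic mean on all 3 genomic arrays (97.4%), against 29.1% of all probes. The negative probes had genomic means from −6.52 to −0.70, with a median of −2.68. The positive probes had genomic means from 1.12 to 6.20, with a median of 3.14. The exception was CG13159, at 3.14, 3.84, 2.69 and 2.08 on arrays 2.1 to 2.4 and at −0.04 on array 1.3. Both sets used the same cleaved genotype, so cutting and a stock difference of those glands cannot be told apart here either. For 33 of the 39 probes the mean was larger in size on the transgenic arrays, on which they were chosen.

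**Figure D1:**
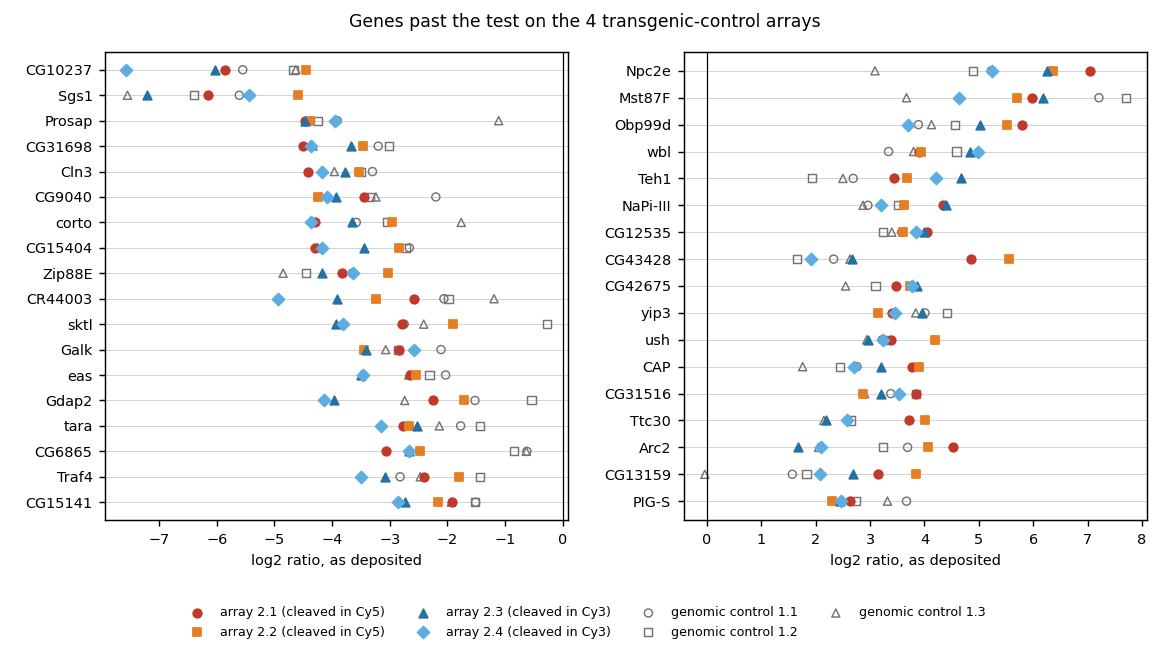
Log2 ratios as deposited (horizontal axes) of the 18 negative and 17 positive genes past the limma test, 1 row per gene. Filled symbols are the 4 transgenic-control arrays, with warm colours where the cleaved sample carried Cy5 and blue where it carried Cy3, and hollow symbols are the 3 genomic-control arrays. No filled symbol crosses 0, and of the hollow ones only CG13159 on array 1.3 does.

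The negative genes are given first. Sgs1, which encodes a glue protein, had log2 ratios of −6.16, −4.59, −7.22 and −5.44 on arrays 2.1 to 2.4. Its mean was −5.85 ± 0.44 (standard error, n = 4 arrays, adjusted p = 0.0324), and it was the only glue gene past the test. CG10237 stood at −5.86, −4.45, −6.03 and −7.57, with a mean of −5.98 ± 0.40, the most negative of all called genes. Both were below −4 on all 4 arrays.

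Cln3, which encodes a lysosomal membrane protein whose human counterpart is lost in Batten disease, was at −4.42, −3.53, −3.77 and −4.17. The zinc transporter gene Zip88E was at −3.83, −3.03, −4.18 and −3.64. In both, the arrays lay close together, around means of −3.97 ± 0.27 and −3.67 ± 0.27. Prosap, the fly gene for the synaptic scaffold Shank, had the narrowest range of the 18, at −4.47, −4.39, −4.47 and −3.95 (mean −4.32 ± 0.23).

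A pair of chromatin regulators was negative on every array. corto, whose protein works with Polycomb and trithorax group proteins, had values of −4.30, −2.96, −3.65 and −4.37 (mean −3.82 ± 0.33, adjusted p = 0.0445). tara, a trithorax group gene, had −2.77, −2.66, −2.53 and −3.15 (mean −2.78 ± 0.24, adjusted p = 0.0451), and its other probe had a mean of −2.21. The Polycomb and trithorax list as a whole lay near 0: 2 of 16 measured genes were negative and 3 positive on all 4 arrays, with a median of 0.00. Over all named genes 11.0% were negative and 9.91% positive on all 4.

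The rest include genes of metabolism and signalling. Galk, for galactokinase, had a mean of −3.07 ± 0.27, and eas, for ethanolamine kinase, one of −3.04 ± 0.22. sktl, which encodes a kinase that makes phosphatidylinositol 4,5-bisphosphate, had −2.79, −1.90, −3.94 and −3.81, so both Cy3 arrays lay below both Cy5 arrays. Gdap2 showed the same split more widely, at −2.25, −1.71, −3.96 and −4.14. On 38.8% of all probes the 2 orientations did not overlap. The adaptor gene Traf4 (mean −2.70 ± 0.25), the noncoding RNA gene CR44003 (mean −3.67 ± 0.29) and the genes CG31698, CG9040, CG15404, CG6865 and CG15141, with means from −4.0 to −2.42, complete the 18.

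The positive genes were led by Npc2e, which encodes a protein of the secreted Npc2 sterol-binding family. It stood at 7.05, 6.36, 6.25 and 5.25, with a mean of 6.23 ± 0.29 (adjusted p = 0.0324). Mst87F, known as a male germ line transcript for a sperm tail protein, followed at 5.98, 5.71, 6.18 and 4.63 (mean 5.63 ± 0.33). Obp99d, an odorant-binding protein gene, was at 5.80, 5.51, 5.02 and 3.69 (mean 5.00 ± 0.31). All 3 were lowest on array 2.4.

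The lists that hold Mst87F and Obp99d, of male germ line genes and odorant-binding protein genes, had medians near 0. Of 22 male germ line genes 3 were positive and 1 negative on all 4 arrays, and of 49 odorant-binding protein genes 2 were positive and 1 negative. Over all named genes 9.91% were positive and 11.0% negative on all 4 arrays. The medians of both lists, 0.14 and 0.06, were near the median of −0.01 over all named genes. By array they ran from −0.31 to 0.47 and from −0.53 to 0.68.

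wbl, which encodes an endoplasmic reticulum protein needed for the sulfotransferase Pipe, had 3.90, 3.94, 4.83 and 4.98 (mean 4.41 ± 0.22). It was 1 of 11 measured folding genes of the endoplasmic reticulum, whose median was −0.32, and the only one of them past the test. PIG-S, for a subunit of the enzyme that attaches GPI anchors, was the weakest positive call at 2.63, 2.3, 2.45 and 2.46 (mean 2.46 ± 0.22, adjusted p = 0.0485). Its other probe had a mean of 0.90.

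Genes for membrane proteins and a transcriptional cofactor followed. Teh1, for an auxiliary subunit of the voltage-gated sodium channel, had 3.44, 3.67, 4.68 and 4.21. NaPi-III, for a phosphate transporter, had 4.35, 3.63, 4.39 and 3.20. ush, which encodes a cofactor of GATA factors, had 3.39, 4.20, 2.97 and 3.24 (mean 3.45 ± 0.26). ush is also on the list of hemocyte markers, of which it was the only one past the test and whose median was −0.09.

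Arc2, of the Gag-like Arc family, differed between the orientations, at 4.53 and 4.06 with the cleaved sample in Cy5 and 1.68 and 2.1 with it in Cy3. CG43428 did so too, at 4.85 and 5.56 against 2.66 and 1.91. Ttc30, for a ciliary transport protein, had 3.71 and 4.01 against 2.19 and 2.57. Such a split was found on 38.8% of all probes, and the dye term passed on none. The remaining positive genes were CAP, yip3, CG12535, CG42675, CG31516 and CG13159, with means from 2.94 to 3.87, and the other probe of CG42675 had a mean of 0.32.

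The threshold lay in a crowded range. The last probe inside had a mean of −2.70 (adjusted p = 0.0485) and the first outside one of −2.37 (0.0515), and 51, 83 and 146 probes had an adjusted p under 0.06, 0.07 and 0.1. Just outside stood Drsl5, a gene of the antifungal drosomycin family, at −5.26, −4.41, −3.78 and −6.47 (adjusted p = 0.0577), and obst-H, for a chitin-binding protein, at 6.39, 3.56, 5.93 and 4.21 (adjusted p = 0.0672). hoe2, with a mean of −4.11, and the tyramine receptor gene TyrRII, with −3.34, had adjusted p of 0.0614 and 0.0540. With each array centred on its median 124 probes were called, among them these 4 genes. When the spread was taken from all 7 arrays, 253 probes were called negative (1.74%) and 302 positive (2.07%).

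The ecdysone receptor gene EcR was negative by nearly the same amount on each array. Its log2 ratios were −2.14, −1.89, −1.93 and −1.86 on arrays 2.1 to 2.4, with a mean of −1.95 ± 0.22 (adjusted p = 0.0672 with the spread of the 4 arrays, 0.00539 with that of 7). Its partner usp gave −0.01, 0.72, −0.56 and −0.47, on both sides of 0. br, an early ecdysone-induced transcription factor gene, had −2.05, −1.67, −2.53 and −1.76 at its leading probe (mean −2.01 ± 0.26, adjusted p = 0.0818, and 0.00486 with the spread of 7). The other probes of br had means from −1.11 to −0.53. With each array centred on its median EcR passed on the 4 arrays alone (adjusted p = 0.0385) and br did not (0.0561).

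Other genes of the hormone response did not move as 1 block. Eip78C, a nuclear receptor gene, was negative throughout but uneven, at −2.25, −0.97, −2.75 and −6.13 (adjusted p = 0.174). vri, a transcription factor gene, had −2.11, −0.64, −0.54 and −1.04, and Cyp18a1, for the enzyme that inactivates ecdysone, −2.3, −0.72, −0.30 and −1.24. ftz-f1, the competence factor of the prepupal response, was positive at 1.5, 0.09, 0.42 and 0.78. Hr3, which acts upstream of ftz-f1, was at 0.91, 1.29, 1.80 and −0.36, and Hr39, Hr4, E23, Eip93F, Hr38 and Kr-h1 had both signs. Of the 14 measured ecdysone regulators 0 passed the test on the 4 arrays, 5 were negative on all 4 (35.7%) and 1 positive. Over all named genes 11.0% were negative and 9.91% positive on all 4. The list's median was −0.28 and came to 0.06 without array 2.4, so its sign rested on that array.

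Glue and intermoult genes other than Sgs1 were small or contradictory. Sgs5 had −0.74, −1.76, −0.54 and −1.15, and Sgs4 −0.36, −0.32, −0.41 and −1.04. Eig71Ee, which is expressed with the glue genes, stood close to −1 on every array, at −1.05, −1.04, −0.87 and −0.99. Pig1, the neighbour of Sgs4, was at −0.40, −1.01, −0.44 and −1.11. Of 10 measured genes, 5 were negative and 0 positive on all 4 arrays, against 11.0% and 9.91% of all named genes. The glue list's median was −0.68. Its medians on the genomic-control arrays 1.1, 1.2 and 1.3 were 0.5, 0.08 and −0.86, so the sign was not shared by all of them.

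The new-glue genes ng1, ng2 and ng3 varied widely between the pairs, and ng4 did not (−0.05, −1.31, 0.11 and 0.27). ng1 stood at 0.24 on array 2.1, −4.74 on 2.2, −5.42 on 2.3 and 5.85 on 2.4. ng3 followed with 0.43, −3.58, −1.88 and 3.41, and ng2 with 0.75, −3.44, −1.76 and 1.99. All 3 were low on 2.2 and 2.3, near 0 on 2.1 and high on 2.4, an order that crosses the dye orientations. Their means, −1.02 ± 1.98, −0.40 ± 1.08 and −0.61 ± 0.92, were smaller than this spread. On the genomic-control arrays ng1 was at 4.83, 0.10 and 4.58.

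The Eig71E genes were negative on most arrays and as uneven. Eig71Eg had the most negative mean, at −4.87, −3.74, −2.56 and −5.93 (mean −4.27 ± 0.61, adjusted p = 0.0986). Eig71Ef was at −1.98, −4.75, −2.17 and −7.81, and Eig71Ed at 0.02, −4.69, −2.14 and −6.17. The list of 8 measured genes had 5 negative (62.5%) and 0 positive on all 4 arrays and 0 past the test. Over all named genes 11.0% were negative and 9.91% positive on all 4. Eig71Eg passed with arrays centred (adjusted p = 0.0361) and not when they were also scaled. The list's median was −1.98, and by array −1.53, −3.14, −0.69 and −2.89. Arrays 2.2 and 2.4, which had opposite signs for ng1, ng2 and ng3, were both low here.

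**Figure D2:**
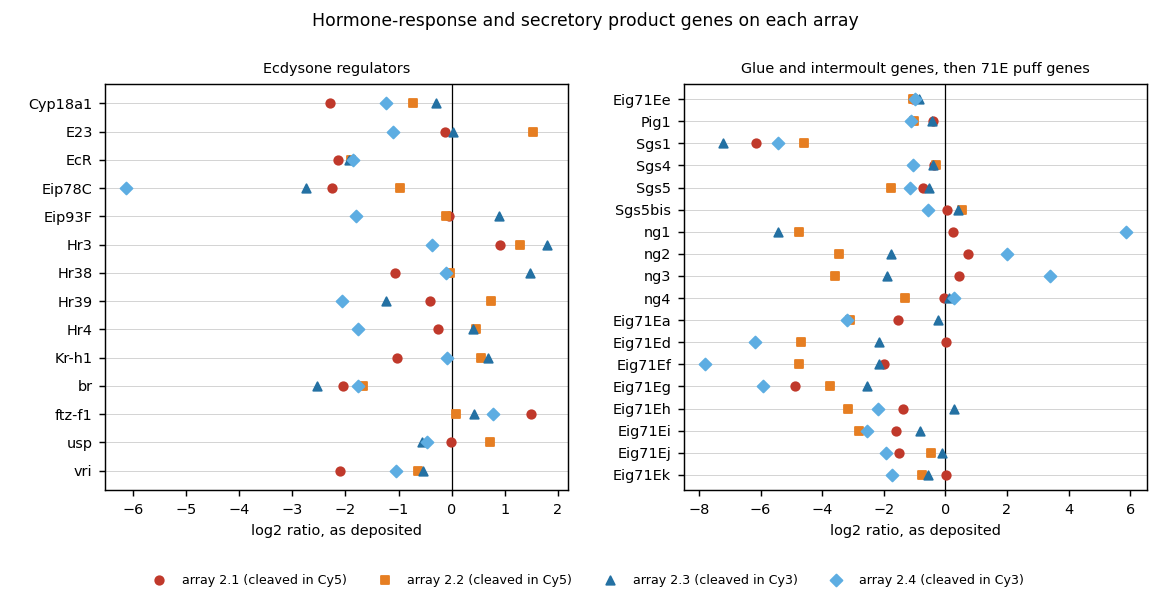
Log2 ratios as deposited (horizontal axes) on each transgenic-control array for the measured ecdysone regulators (left) and for glue, intermoult and 71E puff genes (right), by the leading probe of each gene. EcR and Sgs1 lie left of 0 on all 4 arrays, EcR between −2.14 and −1.86, while ng1 runs from −5.42 to 5.85.

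Genes of the early secretory pathway mostly had negative ratios of about 1 log2 unit. The translocon and signal peptide list, whose products pass new proteins into the endoplasmic reticulum, had 12 of 16 measured genes negative on all 4 arrays (75.0%) and 0 positive, against 11.0% and 9.91% of all named genes. With each array centred on its median it was 10. All 33 lists, this one included, were chosen with earlier results of these data known. Their shares describe the lists and are no independent support. The translocon list's median was −1.04, and by array −1.23, −1.53, −0.99 and −0.55, the smallest on array 2.4. None of these genes passed the test with the spread of the 4 arrays, and 4 did with that of 7.

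Sec61alpha, for the channel itself, had −1.65, −1.53, −2.0 and −0.71 (adjusted p = 0.174, and 0.0429 with the spread of 7). Srp14, of the signal recognition particle, had −2.04, −2.07, −0.76 and −0.87. Spase12, a subunit of signal peptidase, had −1.63, −2.30, −0.89 and −0.88. Both of the latter were nearer 0 with the cleaved sample in Cy3, and on 38.8% of all probes the 2 orientations did not overlap. Srp9 (−0.61, −0.58, 0.01 and 0.46), Sec63 (−1.64, −1.49, −0.06 and 0.66), Sec61gamma and Srp54k had a positive value on 1 or both Cy3 arrays.

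The vesicle coats that carry cargo between endoplasmic reticulum and Golgi showed the same sign. Of 13 measured COPI and COPII genes, counted with the KDEL receptor gene KdelR, 11 were negative on all 4 arrays (84.6%) and 0 positive. Among all named genes the shares were 11.0% and 9.91%. With centred arrays 7 of the 13 were negative. The median was −0.99, and by array −0.95, −1.11, −1.57 and −0.34. epsilonCOP, of the COPI coat, had −1.04, −1.41, −1.60 and −0.96 (adjusted p = 0.166, 0.0479 with the spread of 7). Sec31, of the COPII coat, had −0.69, −1.26, −2.38 and −0.40. Sec13 and Tango1 were positive on array 2.4, at 0.64 and 0.10. The translocon list had genomic-array medians of −0.31, −1.26 and −1.24, the coats −0.03, −0.95 and −0.29.

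**Figure D3:**
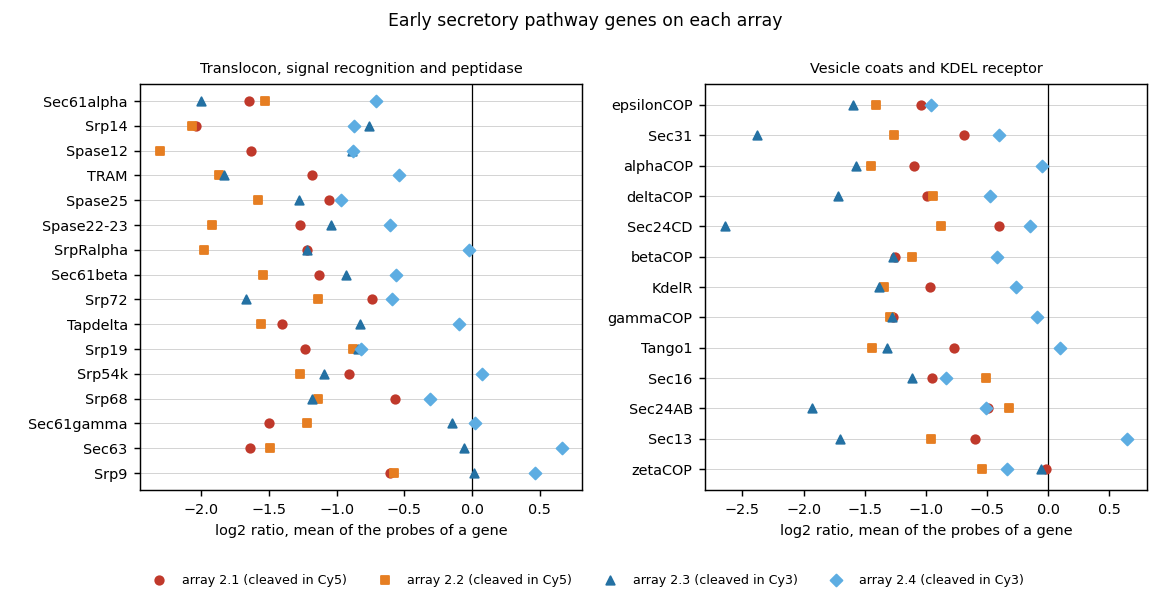
Log2 ratios (horizontal axes, mean of the probes of each gene) of measured translocon, signal recognition and peptidase genes (left) and of vesicle coat genes with KdelR (right) on each transgenic-control array. Most points lie left of 0, and those of array 2.4 (diamonds) are mostly nearest to it.

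The gland transcription factors were mixed. sage, a salivary gland regulator, had −1.25, −1.32, −1.43 and −0.91 (adjusted p = 0.157, 0.0427 with the spread of 7). fkh, which drives gland and glue gene expression, had −0.69, −1.07, −0.32 and 0.17, and Scr, the Hox gene that specifies the gland, 0.41, 1.07, 0.66 and −0.88. sens and hkb also had both signs.

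The vacuolar proton pump, which acidifies lysosomes and secretory vesicles, had 11 of 28 subunit genes negative on all 4 arrays (39.3%) and 0 positive, with a median of −0.38. Over all named genes 11.0% were negative and 9.91% positive on all 4. Vha55 was at −0.94, −0.99, −1.56 and −0.87. Oxidative phosphorylation genes had 23 of 70 negative (32.9%) and 1 positive, with a median of −0.32, led by ND-39 of complex I at −0.86, −1.07, −1.42 and −0.74. Mitochondrial ribosomal protein genes had 12 of 68 negative (17.6%), a share nearer the background, and cytosolic ribosomal protein genes 8 of 39. None of these genes passed the test on the 4 arrays.

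Proteasome genes had the opposite sign. Of 41 measured subunit genes, 16 were positive on all 4 arrays (39.0%) and 1 negative, 10 and 1 with centred arrays. Over all named genes 9.91% were positive and 11.0% negative on all 4. The proteasome median was 0.39, and by array 0.74, 0.41, 0.31 and 0.14. Prosalpha6 had 1.02, 0.57, 0.72 and 1.21, and Rpn2, of the regulatory particle, 1.02, 1.43, 0.50 and 0.28. None passed the test. On the genomic-control arrays the list's medians were 0.22, 0.07 and −0.62, so it stood below 0 on array 1.3.

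DNA replication genes had 7 of 31 negative on all 4 arrays (22.6%) and 1 positive, against 11.0% and 9.91% of all named genes. The medians of the replication list split by orientation, at −0.95 and −0.66 with the cleaved sample in Cy5 and −0.14 and 0.02 with it in Cy3. Among mitosis genes, cid, for the centromeric histone, stood out on a pair of arrays, at −6.92 on 2.1 and −4.77 on 2.3 against −0.68 and −1.36 (adjusted p = 0.341). The other measured cohesin subunits and regulators lay near 0, with means from −0.59 to 0.30. Of 13 such genes only eco, for the acetyltransferase that establishes cohesion, had 1 sign throughout, at −0.55, −0.56, −0.67 and −0.32. Heat shock genes had a median of −0.01, and of 9 measured only Hsc70-4, for a constitutive chaperone, passed with the spread of 7 arrays (mean 1.09, adjusted p = 0.0467). The 9 measured glycolysis genes had medians of −0.32, −1.05, −0.67 and 0.25 by array.

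Antimicrobial and recognition genes had large ratios of both signs. Def, for the peptide defensin, was at 6.25, 4.57, 0.30 and 6.44, and AttD, for an attacin, at 3.34, 4.21, 0.44 and 5.95, so both were near 0 on array 2.3 and high on the others. Drsl1 had −3.80, −3.12, −1.02 and −3.35, also smallest in size on 2.3. Others were closer between pairs: Drsl4, of the drosomycin family, had −1.82, −2.12, −2.26 and −4.67, and PGRP-LF, for a peptidoglycan recognition protein, 2.32, 1.97, 1.11 and 3.61. Of 20 measured genes 6 were negative (30.0%) and 4 positive (20%) on all 4 arrays, against 11.0% and 9.91% of all named genes. None passed the test on the 4 arrays as deposited, Drsl5 and Drsl1 passed with centred arrays, and 4 negative and 2 positive genes passed with the spread of 7. Of the detoxification genes, Cyp4e3, a cytochrome P450 gene, had 5.21, 2.36, 2.47 and 6.21 (adjusted p = 0.161), and GstZ2, a glutathione transferase gene, −2.6, −2.42, −2.33 and −3.21 (adjusted p = 0.0559, and 0.0195 with centred arrays).

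The medians of several lists of other-tissue genes changed sign between arrays. Gut markers (28 measured) had medians of −1.33, 0.17, 0.89 and −0.19 on arrays 2.1 to 2.4. Cuticle genes (115) had −0.79, 0.21, 0.54 and −0.25, in the same order. Odorant-binding protein genes had −0.53, 0.43, 0.68 and −0.19, again lowest on 2.1 and highest on 2.3. The medians over all named genes, −0.22, 0.09, 0.25 and −0.14, were in that order too. Of the muscle markers 3 of 12 were negative on all 4 arrays, among them up, for troponin T, at −0.98, −1.99, −1.14 and −0.42. Fat body markers had 3 of 9 positive and 0 negative, with medians of 0.78, 0.08, 0.23 and 0.49. Over all named genes 11.0% were negative and 9.91% positive on all 4 arrays. With centred arrays 2 fat body markers were positive and 1 negative, and 2 muscle markers were negative. Of the fat body, hemocyte, muscle, gut, nervous system and cuticle markers only ush passed the test. The part of other tissue in any result was not tested.

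**Figure D4:**
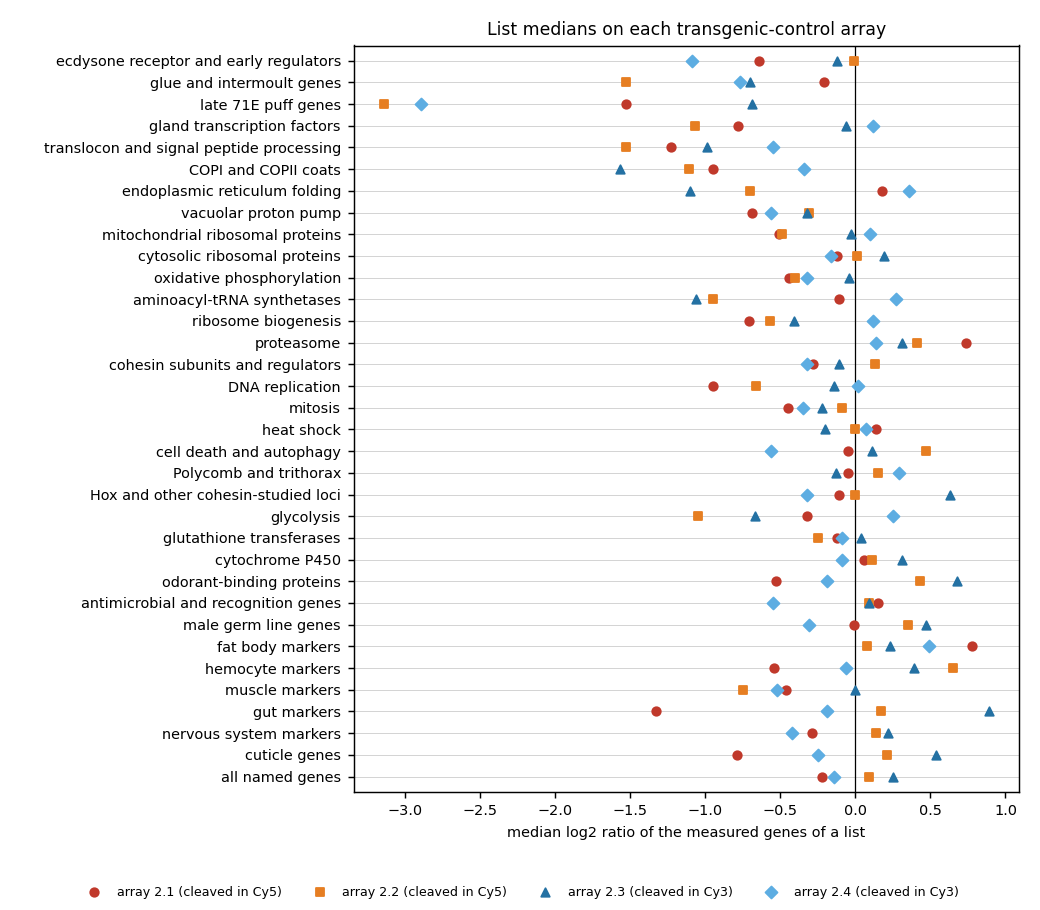
Median log2 ratio (horizontal axis) of the measured genes of each list on each of the 4 transgenic-control arrays, with all named genes in the last row. Translocon, coat and 71E puff lists lie left of 0 on every array and the proteasome right of it, while gut, cuticle and odorant-binding lists run from array 2.1 on the left to 2.3 on the right.

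No probe passed the test of the dye orientation. The arrays with the cleaved sample in Cy5 did not overlap those with it in Cy3 for 5647 probes (38.8%). With 2 arrays against 2 such a gap is common by order alone, so this share by itself shows no dye effect. limma's dye term passed for 0 probes (smallest adjusted p = 0.752), with 862 at an unadjusted p under 0.05. The widest gap of means was at CG14422, with −6.13 and −2.16 in Cy5 against 4.64 and 0.93 in Cy3. CG31784 had −5.88 and −2.02 against 0.63 and 2.57, and CG10919 −7.79 and −2.54 against 1.3 and 0.43. On the genomic arrays these 3 genes lay between −0.48 and 0.48. Other wide gaps came from 1 array: Ufd4 and CG6005 on 2.3, Usp30 on 2.2, and FASN3 (−6.48, −0.50, 1.80 and 1.84) and CG4631 on 2.1.

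No probe passed the test of a difference between the transgenic and the genomic control. limma's test of the difference over the 7 arrays called 0 of 14569 probes (0.0%), with a smallest adjusted p of 0.173 and 621 at an unadjusted p under 0.05. All 4 transgenic values lay below all 3 genomic values for 329 probes (2.26%) and above them for 250 (1.72%). Some probes would fall so by order alone, so these counts by themselves show no difference between the controls. The set means correlated with Pearson's r of 0.592 across probes, which are not independent; the sets share the cleaved genotype but no sample.

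Among genes whose sets did not overlap, Kat60, for the microtubule-severing protein katanin, had transgenic values of 0.07, −0.14, 0.29 and −0.04 and genomic ones of −1.87, −1.92 and −2.48. The fitted difference was 2.16 ± 0.31 (unadjusted p = 0.00019, adjusted p = 0.736). CG6865 had −3.06, −2.47, −2.66 and −2.67 against −0.62, −0.84 and −0.63, a difference of −2.04 ± 0.29 (unadjusted p = 0.000202, adjusted p = 0.736). It was the only gene both past the test on the transgenic arrays and among the 8 lowest by this gap.

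GILT3, for a lysosomal thiol reductase, had 2.35, 1.73, 2.23 and 1.13 against values between −0.03 and 0.27. Both CG10814, with a fitted difference of −3.14 ± 0.67, and the globin gene glob1, with −3.17 ± 0.77, were positive on every genomic array and had both signs on the transgenic ones. CG32198 ran from −0.61 to 4.24 against −7.14 to −2.62, a difference of 5.39 ± 1.11. The others in this group, CG15741, CG30083, CG2233, CG9444, Adk3, CG14143, CG13606, CG10104, CG12506 and GstZ2, had an adjusted p of 1.0, as GILT3, CG10814, glob1 and CG32198 did.

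For EcR the fitted difference was −0.45, with a 95% interval from −1.22 to 0.32, and for Sgs1 it was 0.87, from −0.52 to 2.25. The 18 measured genes within 40 gene positions of vtd on either side, whose alleles differ between the stocks, had a median of −0.01, from −0.49 to 0.53, with 0 past the test. By chromosome arm, 5.37% to 6.39% of the genes of X, 2L, 2R, 3L and 3R had 1 sign on the 4 arrays and an absolute mean of at least 1, and 0 of 62 genes of chromosome 4.

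**Figure D5:**
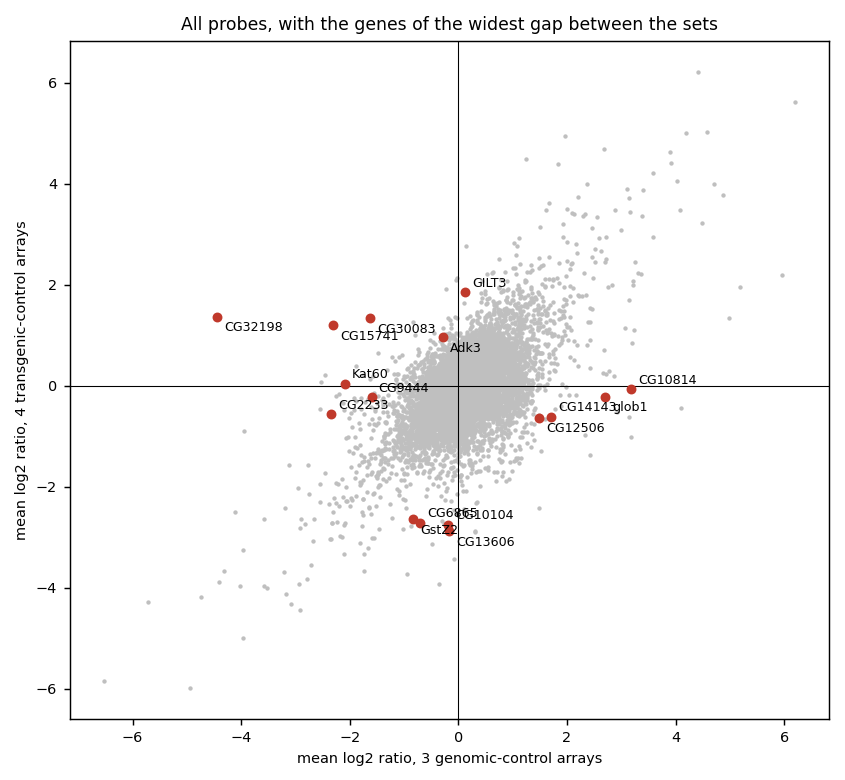
Mean log2 ratio of each of the 14569 probes on the 3 genomic-control arrays (horizontal axis) and the 4 transgenic-control arrays (vertical axis). The named points are genes with the widest gaps between sets that do not overlap, such as Kat60 at −2.09 and 0.04, and none passed the test of the difference.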

How the data were processed

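The authors deposited 1 log2 ratio per probe and array (the base is assumed, as it is not stated per the labels), with no missing value. Steps of signal correction, normalization and averaging are, as far as labels go, not given in the sources used here. Opposite-dye arrays mostly correlated above 0, so the ratios were taken as already turned to a common direction. Probes were named through the platform annotation, updated with NCBI RefSeq's gene table (Release 6 assembly), by gene number for 12011, accession for 107 and symbol or synonym for 501, and the file's symbol was kept for 38. In all, 12657 probes had 1 symbol (11609 genes), 96 several and 1816 none, and the latter were tested but not named. Of 693 genes with more than 1 probe, 395 had 1 sign over all probes.

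Probes were fitted with limma 3.58.1 (lmFit, eBayes) in R 4.3.3, two-sided, with p-values adjusted by Benjamini-Hochberg across the 14569 probes and a threshold of 0.05. The fit of the 4 arrays had a gene-wise dye term and 2 residual degrees of freedom, with 2.89 added by eBayes. The difference between control types came from a fit of all 7 arrays with an effect for each set, which also gave the shared spread. Sample pairs were generated independently per the design text, which has dye counts opposite to the channel labels, which were used. Standard errors are limma's. No depth exists for arrays, and their number limits the precision. The fits were tested on simulated data.

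Named genes were those past the test (up to 20 of each sign), the 12 of each sign with the largest smallest value, list members with 1 sign throughout (at most 4 a list; all of the ecdysone, glue, 71E and gland factor lists), the 8 of each sign with the widest gap between sets, and the 8 with the widest gap between orientations. Further list members, Drsl4 and PGRP-LF included, were named after their values were seen. The leading probe has the smallest p, and list counts use gene means of probes. The members and the 33 lists were chosen with earlier results of these data known. Alternatives changed the arrays, dye term, centring, scaling, weights, prior, probe averaging, threshold and sign of 1 orientation. Not analysed here, for lack of a named probe, were vtd, Sgs3, Sgs7, Sgs8, Eip74EF, Eip75B and others.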

Additional observations from a re-analysis of the deposited data

Results flagged for a closer look

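On 14 of 221 sets of 4 array values looked at, 1 array stood far from the other 3. Chance alone gives about 1 in 20 for independent, normally distributed values. Many of these sets belong to genes chosen for their values, so the number cannot be set against that rate. The largest were single spots of genes named for a wide gap between the orientations, so chosen for such values: Ufd4 at −11.19 and CG6005 at −11.08 on array 2.3, Usp30 at 10.67 on 2.2 and CG4631 at 9.23 on 2.1, each within 1.1 of 0 on the other transgenic-control arrays. Appl stood at −3.69 on 2.3 and glob1 at −2.80 on 2.2. Array 2.4 was the odd one for Prosap (−3.95), Sgs4 (−1.04), SerRS (−0.05), Nop60B (−0.36) and the median of the antimicrobial and recognition list (−0.55). Array 2.1 was so for Prosbeta2 (1.45) and Obp50b (−1.09), and array 2.2 for ATPsynE (−1.03).

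Some named genes had 1 sign on all 4 transgenic-control arrays and the opposite sign on all 3 genomic-control arrays. The fitted differences, transgenic minus genomic, were −2.10 for CG12506, 3.33 for CG15741, 1.29 for Adk3, −0.98 for dup, a replication licensing gene, and −1.61 for up. By limma's test of the difference each had an adjusted p of 1.0. Over all probes 93 of 14569 (0.638%) were opposite in this way.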

How the results depend on the processing

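The number of probes past the test on the 4 arrays, 39, moved with most settings. Leaving out 1 array gave 0 to 752. It was 138 without the dye term, 555 with the spread of all 7 arrays, 124 with arrays centred on their medians, 95 when also scaled, 102 after quantile normalization, 318 from the Cy3 orientation alone and 0 from the Cy5 orientation alone, 0 with the Cy3 orientation turned, and 0 at an adjusted p under 0.01. Of the 35 named calls, 35 were kept without array 2.1 or without 2.2, with centring, scaling and the spread of 7 arrays, 34 with quantile normalization, 33 without the dye term and with probes averaged, 29 with a robust prior, 27 with array weights, and 0 without 2.3 or without 2.4, although the means stayed as large (over the 4 fits −6.30 to −5.41 for Sgs1 and 5.98 to 6.48 for Npc2e). Turning the Cy3 orientation, as if the ratios had not been turned, gave 20 of them the opposite sign: CG10237 0.82, Sgs1 0.48, CG31698 0.02, CG9040 0.08, corto 0.19, CG15404 0.12, Zip88E 0.24, CR44003 0.76, sktl 0.76, eas 0.45, Gdap2 1.03, tara 0.06, Traf4 0.59, CG15141 0.38, wbl −0.49, Teh1 −0.44, CG12535 −0.04, CG42675 −0.10, yip3 −0.22 and CG31516 0.00. Because of the dye term, the residual spread comes from 2.1 and 2.2 alone in the fits without 2.3 or without 2.4. In the fits without 2.1 or without 2.2 it comes from 2.3 and 2.4 alone. The mean with the Cy3 orientation turned is by construction the dye coefficient. The cause of the other moves was not tested. The difference between control types, 0 calls, gave 1 without the dye term and 1 with array weights, and 0 otherwise, and the dye term gave 0 throughout. Turning the Cy3 orientation was not run for list medians, so what follows does not cover it. The medians of the translocon, coat, 71E, glue and proteasome lists kept their sign under every alternative run for lists. Those of 13 of the 33 lists, with medians from −0.28 to 0.14, did not, among them the hemocyte (−0.09, and 0.16 without 2.1), gut (−0.06, and 0.25) and cuticle (−0.06, and 0.16) lists. No paired analysis was possible because the 2 sets share no replicate number. A fit with 2 residual degrees of freedom limits what could pass.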

Other observations

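Array 2.1 had 48 probes above 4 in size that were under 1 in size on 2.2, 2.3 and 2.4, more than any other transgenic-control array (5, 16 and 1). Of these, 26 were positive. All 26 were also above 1 on array 1.3 of the genomic control, with a median of 3.13 there, while 0 were above 1 on 1.1 or 1.2. Over all probes 13.8% were above 1 on 1.3. The other 22 were negative on 2.1, and 0 of them were below −1 on 1.3, where 6.03% of all probes were. The probes were chosen for their value on 2.1, not on 1.3. By the channel labels the cleaved sample carried Cy5 on 2.1 and Cy3 on 1.3. The pattern was noticed in the data and no explanation of it was tested.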
